A study of Mus musculus with 8 samples.

Results

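The insulin-like growth factors, their receptors and their binding proteins were measured in the tongue bud of mouse embryos labelled as lacking a TGF-beta receptor in the neural crest. The members are the 10 genes Igf1, Igf2, Igf1r, Igf2r, Igfbp2, Igfbp3, Igfbp4, Igfbp5, Igfbp6 and Igfbp7, represented by every probe set whose platform annotation names that gene alone. They are 10 of 18193 genes measured and 28 of 34945 probe sets naming 1 gene. A further probe set named both Airn and Igf2r and was left out.

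The mutants had the genotype Wnt1-Cre; Alk5 fl/fl. The controls were Alk5 fl/fl without Cre, so both groups shared the floxed allele. Alk5 is the type I receptor of TGF-beta, with the gene symbol Tgfbr1, and Wnt1-Cre deletes the floxed gene in neural crest cells and their descendants. The mesenchyme and connective tissue of the tongue come from these cells, whereas its muscle precursors come from mesoderm and keep the gene. The strain was C57BL/6J, the age was embryonic day 13.5, and the sex of the embryos had not been determined. Each group had 4 one-colour Affymetrix arrays, 1 for each numbered tongue bud. No group carried Wnt1-Cre without Alk5 fl/fl, so an effect of the transgene and one of receptor loss cannot be told apart. The labels do not say whether the buds came from separate litters, and the p-values measure only the spread between these samples.

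Igf1 and Igf2 are small secreted hormones that act through the tyrosine kinase receptor Igf1r and promote the growth of most embryonic tissues, including the division and differentiation of myoblasts. Igf2r, the cation-independent mannose 6-phosphate receptor, takes Igf2 into the cell for breakdown. The binding proteins hold the ligands outside cells, prolong their presence or keep them from the receptor, and are themselves cut by proteases. In the mouse Igf2 is expressed from the paternal and Igf2r from the maternal copy.

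The array medians were 5.96 to 6.01 on the log2 scale, and the arrays correlated across probe sets at 0.990 to 0.998 whatever their group. Genotype lay along the first principal component (45.2% of variance), and the second (18.7%) crossed the genotypes. Markers of muscle, neural crest mesenchyme and epithelium were present: all 12 differentiated muscle, 6 mesenchyme and 6 epithelial markers averaged above the array medians. The mean of 3 Y-linked genes was 3.09 in control 3 and 8.44 to 8.73 on the other arrays. By these values control 3 reads as female and the other arrays as male, so sex was not balanced between the groups. Tgfbr1 itself was higher in mutants on its brightest probe set, by 0.39 on the log2 scale (limma, adjusted p = 0.00342). Where its probes lie relative to the floxed part is not given in the sources used here, so directions rest on the labels.

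Of the 10 members, Igf1 and Igfbp6 were lower in mutants and none was higher. Igf1 read 0.594 of its control level and Igfbp6 0.642. The other ligand, Igf2, both receptors and the binding proteins Igfbp2, Igfbp3, Igfbp4, Igfbp5 and Igfbp7 did not pass. In limma with Benjamini-Hochberg adjustment over all genes, 9.72% of all genes had an adjusted p under 0.05 and count as called, 4.2% higher and 5.52% lower. The members' share was 20%, which is 2 genes. Their median log2 change was −0.08, against −0.01 for all genes, and their median absolute change was 0.17, against 0.09. In 3 members (Igf1, Igfbp6 and Igfbp3) all 4 mutant values lay below all 4 control values. Groups that did not overlap were seen in 17.8% of all genes, in 8.87% with the mutants lower.

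**Figure D1:**
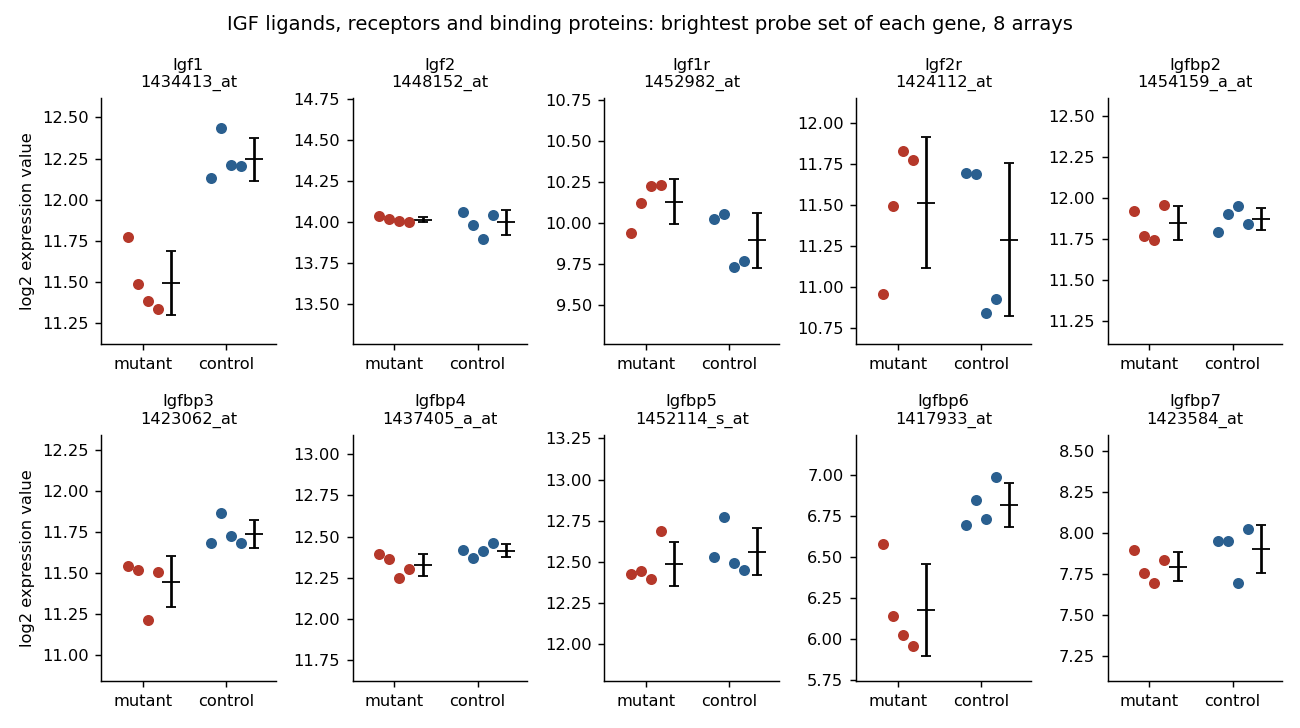
Log2 expression value of the brightest probe set of each of the 10 genes on the 4 mutant (red) and 4 control (blue) arrays, with mean and SD as bars and each vertical axis spanning the same log2 range around the gene's own mean. The mutant points lie wholly below the control points for Igf1, Igfbp3 and Igfbp6, and the points of the other genes overlap.

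The stretches upstream of the transcription start are shown for the 3 genes whose groups did not overlap, both called members and Igfbp3, which was not called. RefSeq on GRCm38.p6 gave a start for 10 of the 10 members, 14 starts in all. Each run below holds the 250 bases before the start, 5′ to 3′ on the gene's own strand, from chr10:87860861-87861110 (plus strand) for Igf1, chr15:102143936-102144185 (plus strand) for Igfbp6 and chr11:7213924-7214173 (minus strand) for Igfbp3. Capitals mark CAGAC or its complement GTCTG, the core of the CAGA box that Smad proteins bind.
Igf1: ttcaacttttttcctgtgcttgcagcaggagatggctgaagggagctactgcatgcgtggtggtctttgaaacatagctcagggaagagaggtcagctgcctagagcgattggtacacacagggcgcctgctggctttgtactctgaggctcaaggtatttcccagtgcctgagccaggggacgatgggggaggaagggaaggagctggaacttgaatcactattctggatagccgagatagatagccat
Igfbp6: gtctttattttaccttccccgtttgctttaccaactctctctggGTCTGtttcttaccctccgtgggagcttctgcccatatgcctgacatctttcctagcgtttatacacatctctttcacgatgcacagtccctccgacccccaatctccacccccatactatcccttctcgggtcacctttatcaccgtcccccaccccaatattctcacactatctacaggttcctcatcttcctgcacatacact
Igfbp3: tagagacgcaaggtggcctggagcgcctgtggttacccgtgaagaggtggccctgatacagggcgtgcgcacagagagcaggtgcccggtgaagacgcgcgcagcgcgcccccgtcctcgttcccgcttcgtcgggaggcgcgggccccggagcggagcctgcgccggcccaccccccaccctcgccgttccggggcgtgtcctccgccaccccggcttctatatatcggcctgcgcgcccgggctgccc
The core stood once in the Igfbp6 window and not in those of Igf1 and Igfbp3. Among the members' 14 windows 7 held it on either strand, against 42.2% of 32851 windows of the same length over all genes. The palindrome GTCTAGAC stood in 0 of the 14 and in 0.167% of all windows. The E-box CANNTG, read on both strands, was in 9 of the 14 and 66.2% of all, with 1 in each of the 3 windows printed. TATAAA, on either strand, was in 2 of the 14, those of Igfbp4 and Igfbp6, and in 12.4% of all. The Igfbp3 window held 32 CpG dinucleotides, that of Igfbp6 held 7 and that of Igf1 held 5, where the median of all windows was 6. These matches describe the letters of the windows only.

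Igf1, the ligand of postnatal growth that is also made by embryonic mesenchyme, fell in mutants on every probe set. Its brightest, 1434413_at, read 11.77, 11.49, 11.38 and 11.33 log2 units in mutants 1 to 4, against 12.13, 12.43, 12.21 and 12.20 in controls 1 to 4. The highest mutant value, that of mutant 1, was still below the lowest control value, that of control 1. The means were 11.49 ± 0.20 in mutants and 12.24 ± 0.13 in controls (SD, n = 4 each). The log2 change was −0.75 (SE 0.10, 95% interval −0.98 to −0.52, limma adjusted p = 0.00225), and its absolute size exceeded that of 98.4% of genes.

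The remaining probe sets of Igf1 gave changes of similar size. Set 1437401_at averaged 11.49 ± 0.10 in mutants and 12.24 ± 0.22 in controls (SD, n = 4 each), a log2 change of −0.75. Set 1452014_a_at averaged 9.05 ± 0.16 in mutants and 9.82 ± 0.13 in controls, a change of −0.77. The widest spread among controls was that of 1419519_at, with 10.23, 10.09, 9.80 and 9.55 in controls 1 to 4. Its mutant values were 9.07, 8.87, 9.16 and 9.22 on mutants 1 to 4, and its change was −0.84 (SE 0.15). In the fit over all 34945 probe sets, where 5.94% were called (2.69% higher and 3.25% lower), the adjusted p of the 4 sets ran from 0.0022 to 0.0116. The probe sets of a gene are read from the same RNA and are not replicates of each other.

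Igf2, the main IGF ligand before birth and a product of many mesodermal tissues, did not pass. The brightest set, 1448152_at, read 14.04, 14.02, 14.01 and 14.00 in mutants 1 to 4, against 14.07, 13.99, 13.90 and 14.05 in controls 1 to 4. The mutant values all lay inside the control range. The change was 0.02 (SE 0.05, 95% interval −0.10 to 0.13, limma adjusted p = 0.881). This set stood above 99.7% of genes in mean value, and the highest value on any array was 14.75. Whether a set this near the top of the range can still show a change was not tested. The dimmer set 1415931_at read 9.26, 9.21, 9.64 and 9.12 in mutants 1 to 4, against 9.36, 9.10, 8.92 and 8.81 in controls 1 to 4. The groups overlapped through control 1, and the change of 0.26 had an interval of −0.06 to 0.58.

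The ligands were also set beside each other within each array. The log2 value of Igf1 minus that of Igf2, on the brightest sets, averaged −2.52 ± 0.18 in mutants and −1.75 ± 0.17 in controls (SD, n = 4 each). This restates the fall of Igf1, since the bright Igf2 set hardly varied, and the dimmer Igf2 set was not used for it. It gives no ratio of the ligands' RNA, since levels of different probe sets cannot be compared.

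Igf1r, the kinase receptor that both ligands activate, did not pass on any of its 5 probe sets. The brightest, 1452982_at, read 9.94, 10.13, 10.22 and 10.23 in mutants 1 to 4, against 10.02, 10.06, 9.74 and 9.77 in controls 1 to 4. Mutant 1 lay inside the control range, and the other mutants lay above it. The log2 change was 0.23 (SE 0.10, 95% interval 0.02 to 0.45), with an unadjusted p of 0.0347 and an adjusted p of 0.169 in limma. The dimmer sets were not of one sign. Set 1426565_at changed by 0.12 and set 1428967_at by 0.42, while 1452108_at changed by −0.07 and 1446303_at, whose mean lay below the array medians, by −0.10.

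Igf2r, which clears Igf2 and sorts lysosomal enzymes, varied more within the groups than between them. Set 1424112_at read 10.96, 11.50, 11.83 and 11.77 in mutants 1 to 4, against 11.69, 11.69, 10.84 and 10.93 in controls 1 to 4. Mutant 1 and controls 3 and 4 were low, and the remaining arrays were high in both groups. The change of 0.23 had an interval of −0.33 to 0.78 (limma adjusted p = 0.638), and it ran from 0.08 to 0.41 as each array was left out in turn. The second set, 1424111_at, averaged 10.74 ± 0.18 in mutants and 10.58 ± 0.16 in controls (SD, n = 4 each).

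The same 3 arrays were low on the Igf1r set that varied most. Set 1428967_at read 9.14, 9.83, 10.37 and 10.44 in mutants 1 to 4, against 10.05, 9.99, 9.10 and 8.97 in controls 1 to 4. Malat1, an abundant nuclear RNA that was picked for this description after its values were seen, read 7.58, 8.28, 9.80 and 9.24 in mutants 1 to 4, against 9.73, 9.02, 7.49 and 7.11 in controls 1 to 4. Mutant 1 and controls 3 and 4 were the lowest 3 of the 8 arrays for all 3 probe sets, and mutant 2 was the next in each. These 4 arrays also lay together at one end of the second component. Its part in the receptor values was not tested.

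**Figure D2:**
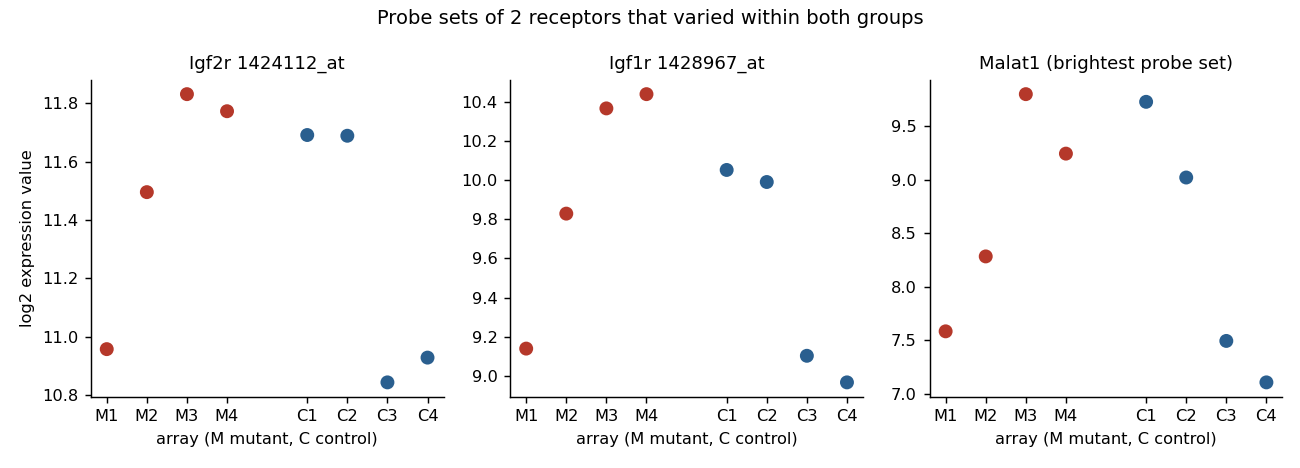
Log2 expression values on each mutant (M1 to M4, red) and control (C1 to C4, blue) array for Igf2r 1424112_at, Igf1r 1428967_at and Malat1, each on its own vertical scale. In all 3 panels M1, C3 and C4 are the lowest arrays, while the group means differ by less than the spread within groups.

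Igfbp6, a binding protein that prefers Igf2 to Igf1, was the called member among the binding proteins. Its single probe set, 1417933_at, read 6.58, 6.14, 6.03 and 5.96 in mutants 1 to 4, against 6.69, 6.85, 6.73 and 6.99 in controls 1 to 4. Mutant 1 lay just below control 1, the lowest control, and the other mutants lay further down. The means were 6.18 ± 0.28 in mutants and 6.82 ± 0.13 in controls (SD, n = 4 each). The log2 change was −0.64 (SE 0.13, 95% interval −0.93 to −0.35, limma adjusted p = 0.0148). Its mean stood above only 39.6% of genes and no detection call was used, so the fold holds for measured signal. As each array was left out in turn the change ran from −0.77 (without mutant 1) to −0.57, with limma adjusted p up to 0.0468. The call was lost without variance moderation (adjusted p = 0.0681).

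Igfbp3, the main carrier of IGFs in blood after birth and a secreted protein of mesenchyme, had groups that did not overlap but missed the threshold. Set 1423062_at read 11.54, 11.52, 11.21 and 11.51 in mutants 1 to 4, against 11.69, 11.87, 11.72 and 11.69 in controls 1 to 4. The change was −0.29 (SE 0.08, 95% interval −0.48 to −0.11) with an adjusted p of 0.0533 in limma. The second set, 1458268_s_at, gave −0.30, with mutant 1 at 10.43 above control 1 at 10.41 and the other mutants below every control. When the variance prior followed the mean level, the adjusted p of the brightest set was 0.0274, and it was 0.035 when dim probe sets were left out. Igfbp3 stayed uncalled in 16 of the 19 alternatives. With each of the 8 arrays left out in turn, its limma adjusted p was 0.058 to 0.136.

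The remaining 4 binding proteins differed little. Igfbp2, abundant in many embryonic epithelia and mesenchymes, read 11.92, 11.77, 11.75 and 11.96 in mutants 1 to 4, against 11.79, 11.91, 11.95 and 11.84 in controls 1 to 4, and the groups overlapped fully. Its change was −0.02 with an interval of −0.17 to 0.12. Igfbp4, an inhibitor of IGF action that the protease Pappa cuts, had 6 probe sets with changes from −0.09 to 0.10. Its brightest set averaged 12.33 ± 0.07 in mutants and 12.41 ± 0.04 in controls (SD, n = 4 each), with an interval of −0.20 to 0.03.

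Igfbp5, which binds matrix and is made by developing muscle and its surroundings, read 12.42, 12.44, 12.39 and 12.68 in mutants 1 to 4, against 12.53, 12.77, 12.49 and 12.45 in controls 1 to 4. Mutant 4 and control 2 were the high arrays of their groups. The change was −0.08 with an interval of −0.28 to 0.12, and the dimmer set gave 0.04. Igfbp7, an IGF-binding protein-related protein of low affinity for IGFs that vessels make, changed by −0.11 on its brightest set (interval −0.29 to 0.07). Its other sets gave −0.04 and 0.06, the latter from 1423585_at, whose mean of 4.17 lay below the array medians. For these 4 genes the intervals exclude a fall as large as that of Igf1, and a p above the threshold does not show equal levels.

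**Figure D3:**
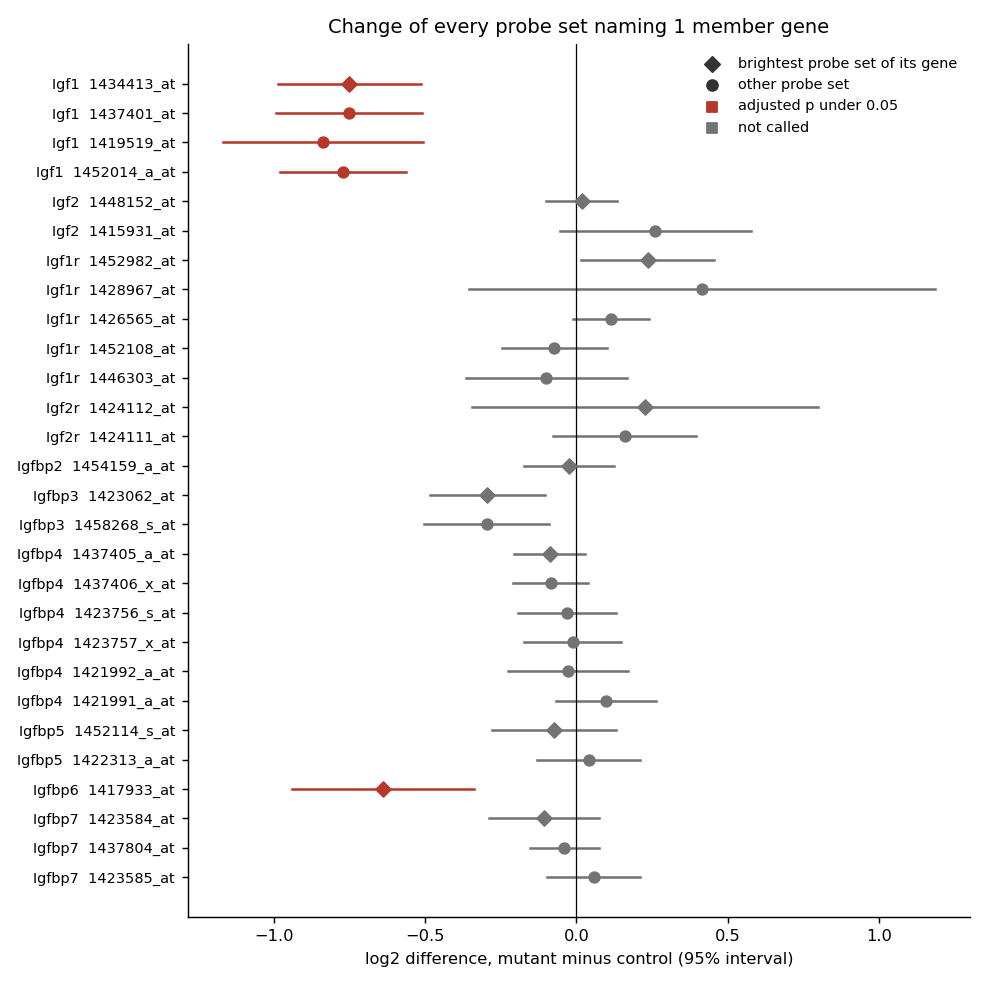
Log2 difference, mutant minus control, of all 28 probe sets with 95% intervals from the fit over probe sets; diamonds are the brightest set of a gene, and red marks an adjusted p under 0.05. The 4 Igf1 sets and the Igfbp6 set are red, and the widest intervals belong to Igf1r 1428967_at and Igf2r 1424112_at.

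Over the probe sets 5 of 28 were called, all lower in mutants, which is 17.9%, against 5.94% of all probe sets called and 3.25% called lower. Of the 5, 4 belong to the single gene Igf1. Groups did not overlap in 6 of the 28, where the share over all probe sets was 14.7%.

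Markers of several cell types also differed between the groups. Their counts stand beside a share of 9.72% called over all genes, 4.2% higher and 5.52% lower. In whole tissue, fewer cells of a type and less RNA per cell cannot be told apart. Of 12 differentiated muscle markers 9 were lower, and the mean over the list was 10.61 to 10.95 in mutants and 11.41 to 11.71 in controls. Of 6 macrophage and leukocyte markers 3 were lower, with list means of 6.89 to 7.31 in mutants and 7.36 to 7.46 in controls. Smooth muscle and pericyte markers were lower in 3 of 6 cases, with list means of 8.51 to 8.84 in mutants and 9.01 to 9.11 in controls.

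Tendon markers were lower in 3 of 5 cases, with list means of 7.13 to 7.36 in mutants and 7.67 to 7.95 in controls. Thbs4 changed most, by −1.70, against −0.48 for Fmod and −0.45 for Scx, and the 2 uncalled tendon markers lay at −0.52 and 0.25. Neural crest mesenchyme markers overlapped, at 9.82 to 10.13 in mutants and 9.73 to 10.03 in controls, and 1 of the 6, Prrx1, a transcription factor of mesenchyme, was higher. Of the macrophage, smooth muscle and tendon lists 1 marker each averaged below the array medians. Endothelial markers were higher in 2 of 6 cases, with list means of 8.45 to 8.80 in mutants and 8.21 to 8.34 in controls.

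Neuronal markers were lower in 4 and higher in 2 of 6 cases, with list means of 6.97 to 7.15 in mutants and 7.35 to 7.56 in controls. The 2 higher ones, Nefl and Nefm, changed by 1.63 and 1.53, and the 4 lower ones by −1.95 (Stmn2) to −0.76 (Snap25). The list mean therefore blends large changes of both signs. Snap25 averaged 3.57, below the array medians. Schwann cell markers were lower in 2 of 4 cases, with list means of 8.20 to 8.57 in mutants and 8.60 to 8.97 in controls. Of 5 myogenic progenitor markers 2 were lower, with overlapping list means of 9.57 to 9.86 in mutants and 9.80 to 10.01 in controls. Cartilage markers were higher in 1 of 5 cases, with list means of 7.04 to 7.16 in mutants and 6.84 to 6.99 in controls. The called one was Col9a1, with a change of 1.00. The 4 uncalled cartilage markers lay between −0.26 and 0.24, and 2 of the list averaged below the array medians. Markers of cycling cells were higher in 1 of 5 cases, with list means of 12.28 to 12.37 in mutants and 12.15 to 12.25 in controls. Of the 6 epithelial, 4 erythroid, 3 bone and 4 hepatocyte markers 0 were called, and the hepatocyte list had means of 5.53 to 5.73 in mutants and 5.52 to 5.70 in controls. The part of these cell types in the falls of Igf1 and Igfbp6 was not tested.

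The profiles most like those of both called members were sought among all genes that are not members. Likeness was the root mean square difference over the 8 arrays after each gene's own mean was subtracted. A gene close to a called member by this measure must share much of its group difference. The picks are therefore no evidence of shared regulation or of a shared cell type, which were not tested. For Igf1 the nearest were Camk2a, a calcium-dependent kinase, at 0.0731 log2 units and Tgfb3, a TGF-beta ligand, at 0.0841. For Igfbp6 they were Csf1r, the receptor of macrophage colony-stimulating factor, at 0.0781 and again Tgfb3 at 0.0909. Csf1r read 9.86, 9.54, 9.17 and 9.31 in mutants 1 to 4, against 10.02, 10.08, 9.94 and 10.23 in controls 1 to 4.

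Among other genes of the pathway, 16 of 77 measured genes in 6 lists were called, 8 higher and 8 lower, which is 20.8%, against 9.72% of all genes. By list the share ran from 8.33% for receptor adaptors, near that of all genes, to 37.5% for regulators of Igf2. The median change of all 77 genes was −0.02. Of the 83 genes listed, those with no probe set naming them alone, H19 among them, were not analysed here. When each of the 8 arrays was omitted in turn, 9 of the 16 calls always held.

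**Figure D4:**
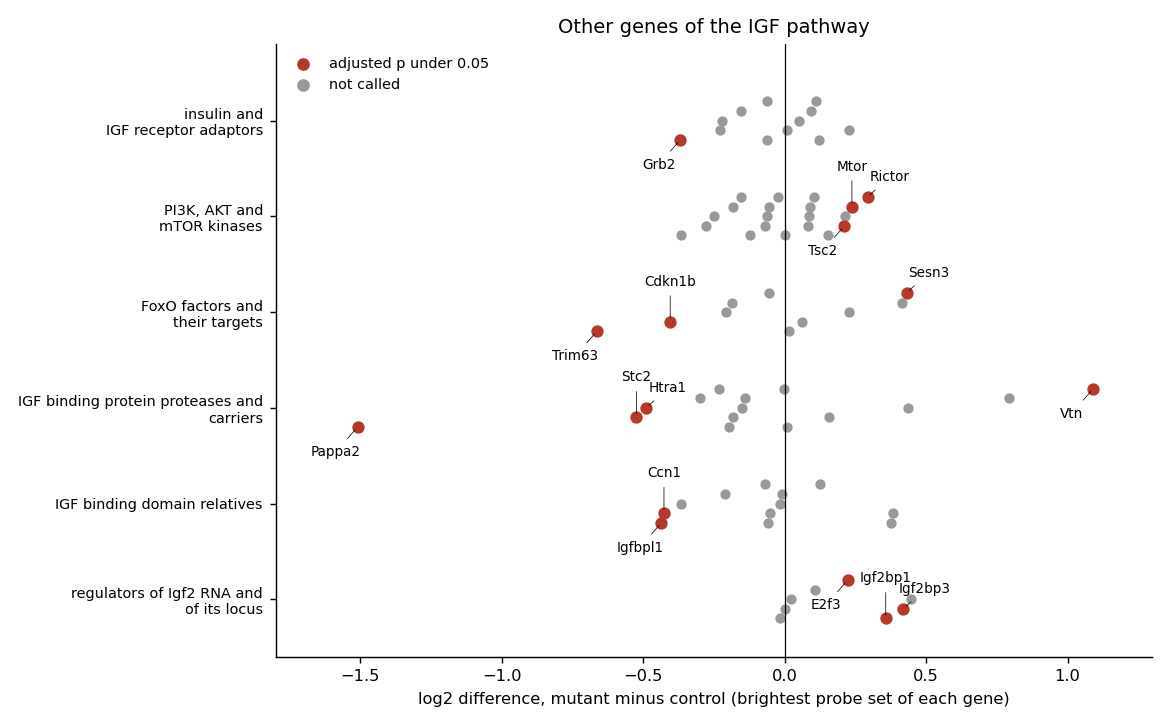
Log2 difference, mutant minus control, of the 77 pathway genes by list, 1 point a gene from its brightest probe set, spread vertically for legibility; red points are called and named. Pappa2 and Vtn lie farthest from 0, and the adaptors and kinases lie between −0.37 and 0.29.

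Proteases and partners of the binding proteins, listed together with the binding protein Igfbp1, held the widest changes, with 3 of 15 lower and 1 higher. Igfbp1 is not among the members. Pappa2, a metalloprotease that cuts Igfbp3 and Igfbp5, read 7.37, 6.97, 7.63 and 6.52 in mutants 1 to 4, against 9.45, 8.59, 8.12 and 8.38 in controls 1 to 4. The groups stood apart, and its log2 change was −1.51 (SE 0.30, limma adjusted p = 0.0137). Its relative Pappa, which cuts Igfbp4 and was singled out here after its values were seen, did not pass in limma, at 0.79 with overlapping groups (adjusted p = 0.0991).

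Stc2, a secreted inhibitor of these proteases, changed by −0.52, but 5 of the 8 single omissions of an array ended its call (−0.61 to −0.40). Averaged over its 3 probe sets it was −0.30, still called. Htra1, a serine protease with an IGF-binding protein-like domain, changed by −0.49 (SE 0.06, limma adjusted p = 0.00142) and both of its probe sets were called. Vtn, encoding vitronectin, a serum and matrix protein that binds IGF2, was higher by 1.09 (SE 0.19). Its control mean of 4.96 lay below the array medians, so its fold holds for measured signal.

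Receptor adaptors were called in 1 of 12 cases. Grb2, which links receptors to Ras, changed by −0.37 (SE 0.06, limma adjusted p = 0.00413), and by −0.20 averaged over its 2 probe sets, of which 1 was called. The 11 uncalled adaptors and receptors lay between −0.23 and 0.23. Kinases and regulators of PI3K, AKT and mTOR were higher in 3 of 20 cases. Tsc2 at 0.21, Mtor at 0.24 and Rictor at 0.29 were no longer called in 5, 4 and 7 of the 8 single omissions. Averaged over all its probe sets, Mtor was 0.06 and Rictor 0.07, and neither passed.

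FoxO factors, which AKT restrains, and their targets were called in 3 of 10 cases. Trim63, a ubiquitin ligase of muscle, changed by −0.66 (SE 0.08, adjusted p in limma 0.00112) and Cdkn1b, a cell cycle inhibitor, by −0.40. Averaged over its 2 probe sets, Cdkn1b was −0.25 and still called. Sesn3, a stress-response protein, was higher by 0.43. The 7 uncalled genes of the list lay between −0.21 and 0.41.

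Proteins with an IGF-binding domain outside the family were lower in 2 of 12 cases. Igfbpl1 changed by −0.44, no longer called in 1 of the 8 single omissions, and Ccn1, a matricellular protein, by −0.43, no longer called in 7. Averaged over its 2 probe sets, Igfbpl1 was −0.27, which missed the threshold (limma adjusted p = 0.0802). Of 8 regulators of Igf2 RNA or of its locus, 3 were higher. The RNA-binding proteins Igf2bp3 and Igf2bp1, which bind the Igf2 message, rose by 0.42 (SE 0.06) and 0.36 (SE 0.06), with 5 of 6 and 3 of 4 probe sets called. Igf2bp3 read 11.73, 11.84, 11.92 and 11.79 in mutants 1 to 4, against 11.34, 11.55, 11.36 and 11.36 in controls 1 to 4. E2f3, a cell cycle transcription factor, was at 0.22 and was no longer called in 3 of the 8 single omissions. The mean of its 2 probe sets, 0.14, missed the threshold (limma adjusted p = 0.167).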

How the data were processed

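Total RNA of mouse tongue buds was turned into biotin-labelled cRNA and read on Affymetrix arrays in one colour, according to the labels. The authors deposited 1 log2 value for each probe set and array. Their processing notes list RMA. RMA makes array distributions alike, which can remove shifts common to many genes, and its version is not given in the sources used here. Of 45101 probe sets 64 were Affymetrix controls, 932 named several genes and 9160 were unnamed here. The platform annotation supplied names, and a RefSeq identifier was found for 34741 of the 34945 sets with 1 gene.

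A gene was represented by its probe set with the highest mean over the 8 arrays. The comparison of mutants with controls used limma 3.58.1 under R 4.3.3 (lmFit, eBayes, two-sided, Benjamini-Hochberg) over 18193 genes, and every probe set in a second fit over 34945. No filter on dim sets was applied, and the number of arrays limits the precision. The members, pathway and marker lists and the tests were chosen with earlier results of these data known. Named genes were all members, Tgfbr1, called pathway genes and the 2 nearest profiles of each called member with a change of at least 0.5. Malat1 and Pappa were added after their values were seen, and some marker genes were named outside this rule. H19 and Igfbp1 were named only as list entries. The procedure was tested on simulated data. Their noise was drawn independently for each gene and array, so that test does not cover patterns shared across genes. Alternatives covered the block, normalization, dim probe sets, the choice of probe set, the variance model and arrays left out.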

Additional observations from a re-analysis of the deposited data

Results flagged for a closer look

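Among the 56 groups of 4 values, 1 for each of the 28 probe sets in each genotype, 2 had an array far from the others, measured as its gap to the nearest value over the whole range, against Dixon's critical value. Chance alone gives about 1 in 20. For Igfbp3 1423062_at in mutants, mutant 3 read 11.21 while the others lay between 11.51 and 11.54, a ratio of 0.881. Without mutant 3 the Igfbp3 change was −0.22 (limma adjusted p = 0.081). For Igfbp5 1452114_s_at in mutants, mutant 4 read 12.68 while the others lay between 12.39 and 12.44, a ratio of 0.837. Without mutant 4 the Igfbp5 change was −0.14 (limma adjusted p = 0.387).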

How the results depend on the processing

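Igf1 kept its call and direction under all 19 alternatives, with log2 changes from −0.84 to −0.69, and Igfbp6 kept its call under 17. Igfbp6 lost it with the replicate block (adjusted p = 0.0597) and without variance moderation (0.0681), which left 1 member gene and 3 member probe sets called in each. The replicate block called 966 genes in all, 329 higher. Same-numbered arrays had residual correlations of −0.40, 0.02, −0.18 and −0.16, and differently numbered ones −0.19 to 0.33. These values give no sign that shared numbers pair the samples, but so few arrays cannot exclude it. Leaving out controls 1 and 3 together left 2 member genes and 3 member probe sets called. With 1 array left out 2 member genes and 4 to 5 probe sets were called, 10 to 20 pathway genes and 1143 to 1583 genes in all. Pathway calls fell to 10 without mutant 2. All genes called numbered 1155 without control 2, 1143 without mutant 2, 1172 without mutant 3 and 1172 without mutant 4. Igfbp3 passed with the trended prior (adjusted p = 0.0274), the trended and robust prior (0.0238) and dim probe sets left out (0.035). Uncalled values near 0 changed sign: with 1 array left out Igf2 ran from −0.0165 (without control 3) to 0.0389 and Igfbp2 from −0.0608 to 0.0092, and Igfbp2 was above 0 without control 3 (0.0012), mutant 2 (0.0016) or mutant 3 (0.0092). Igfbp2, Igfbp4 and Igfbp5 had no value where probe sets that may match other transcripts were left out. The causes were not tested.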
